A study of Zea mays with 12 samples.

Results

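A set of 58 probe sets read clear signal in endosperm of the maize inbred Mo17 and near-background signal in endosperm of the inbred B73, out of 17621 probe sets that were not array controls. Members were chosen from the deposited MAS5 signal, as those with at least 400 on all 3 Mo17 arrays and at most 100 on all 3 B73 arrays. The difference between the inbreds is therefore a description and not a finding, and the values that did not enter the choice are those of both hybrids. Endosperm had been collected 13 days after pollination from field-grown plants, and the 4 genotypes were B73, Mo17 and both crosses between them, Mo17xB73 and B73xMo17, with 3 one-colour Affymetrix arrays each. Each array held a pool from 6 ears, with 6 endosperms per ear by the protocol and 5 by the design text. A replicate number stands for 1 of 3 crossing dates, and all genotypes of a date were pollinated close together in time. No transgene or treatment was involved, and the inbreds differ from each other across the whole genome.

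Endosperm is the triploid storage tissue of the kernel. It receives 2 genome copies from the mother and 1 from the pollen, so reciprocal crosses hold the same alleles in opposite dosage. Maize crosses are by habit named with the female parent first; the labels do not say so, and on that reading Mo17xB73 carries 2 Mo17 copies of 3 and B73xMo17 carries 1. A transcript made only from the Mo17 allele, in proportion to its copies, would read 66.7% of the Mo17 level in Mo17xB73 and 33.3% in B73xMo17, a 2-fold difference between the hybrids, or -1 as log2 of B73xMo17 minus Mo17xB73. Imprinted genes, which endosperm is known for, depart from that proportion because the maternal and paternal copies are not used equally. A probe set can also read low in one inbred because its probes do not match that inbred's sequence, and here low transcript and poor probe match cannot be told apart.

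Levels below are median-scaled MAS5 signal: 1 factor per array brought the kept probe sets to a shared median, and signal below 14.8 was raised to that floor where logs were taken. The arrays B73xMo17 replicates 1 and 2 were dim before scaling, with medians of 442.5 and 423.8 against 517.9 to 618.5 on the other 10 arrays, and no other array stood apart on this measure. Of 10 listed endosperm genes 8 were found by name, and 5 of them, sh1, sh2, bt2, ae1 and gz27, read 9105 or more in every genotype. All 8 read lower in Mo17 than in B73. The gap was smallest for gz27, at 9341 and 10032. It was widest for the others: wx1 read 3986 and 8624, gz50 1909 and 9566, and o2 336.7 and 4628. The summed signal of the 8 ran from 57953 to 63221 in Mo17, 65824 to 76043 in Mo17xB73, 86700 to 96808 in B73xMo17 and 81084 to 91598 in B73. Of the embryo genes, 5 of 6 were found by name, with summed signal from 3647 to 4346, 3069 to 4728, 3677 to 4761 and 3686 to 4461 in the same order. Across genotypes ole1 read 2375 to 3097, glb1 783 to 1253, mlg3 37.9 to 174.4, vp1 68.8 to 76.3 and glb2 15.3 to 19.1. Of 6 green tissue genes listed, rbcS and ssu1 were read by the same probe set and me3 by another. These 2 probe sets summed to 182 to 361 over all arrays. For pericarp and nucellus pigment, 1 gene of 4 was found and read 31.8 to 121. The part of these other tissues in the results was not tested. In pooled tissue, fewer cells of a type and less RNA per cell cannot be told apart.

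In Mo17xB73 the median of the set lay close to the level set by the number of Mo17 copies. In B73xMo17 it lay above that level, and below it on the deposited scale (30.2%). The median member read 67.8% of its Mo17 level in Mo17xB73 (SD 0.478 over the medians of 3 crossing dates) and 38.4% in B73xMo17 (SD 0.311). Date by date the medians were 67.2%, 67.7% and 68.2% in Mo17xB73, and 37.8%, 38.4% and 38.4% in B73xMo17. The quartiles were 62.5% and 72.4% in the first hybrid, and 33.4% and 46.1% in the second. When the member's mean B73 signal was subtracted from every genotype first, the medians became 66.3% and 33.5%. No test was made of these percentages, because the Mo17 arrays in their denominator chose the members.

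Members were next set against a range of 25% of the dosage level to either side of it. In Mo17xB73, 50 of 58 members lay between 50% and 83.3% of Mo17, with 2 below and 6 above. In B73xMo17, 29 lay between 25% and 41.7%, with 10 below and 19 above, and after subtraction of the B73 signal 31 lay within, 12 below and 15 above. The median SD of a member over the dates was 5.87 percentage points in Mo17xB73 and 3.84 in B73xMo17. Percentages of the 2 hybrids together summed to a median of 106%, against 100% for copy-proportional signal, and to 98.7% after subtraction.

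**Figure D1:**
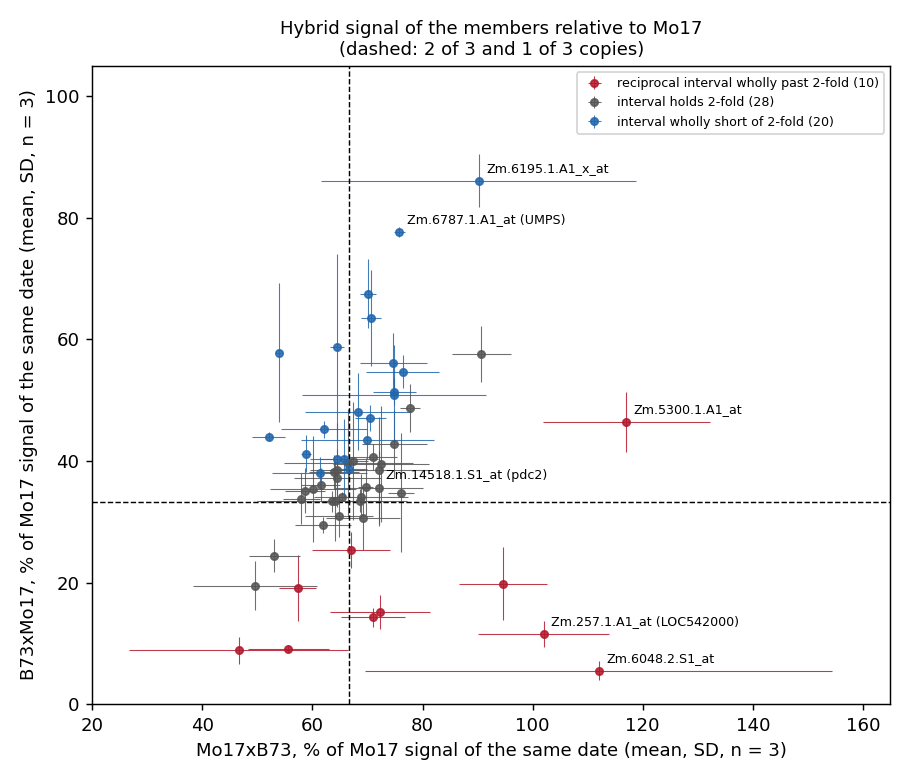
Signal in Mo17xB73 (x axis) and B73xMo17 (y axis) of each of the 58 members as a percentage of Mo17 signal of the same crossing date, with SD bars over 3 dates; dashed lines mark 66.7% and 33.3%, and colours mark whether the 95% interval of the reciprocal difference lies past, across or short of 2-fold. In B73xMo17 29 members lie between 25% and 41.7%, 10 below and 19 above, the red members lie mostly low on the y axis, and Zm.6195.1.A1_x_at and the UMPS probe set lie high.

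The hybrids were compared with each other by limma over all 10708 probe sets that passed the filter on dim signal. All 58 members passed it, as the Mo17 arrays alone made certain. Of the members, 46 were higher in Mo17xB73 at an adjusted p under 0.05, beside 15.9% of all tested probe sets. None was higher in B73xMo17 by limma, nor at an unadjusted p under 0.05 (0 of 58), beside 15.3% of tested probe sets called in that direction. On the arrays, 52 members had all Mo17xB73 values above all B73xMo17 values, beside 21.9% of tested probe sets, and the hybrid arrays overlapped for the other 6. The median log2 difference of the members was -0.79, a 1.73-fold higher signal in Mo17xB73, and that of all tested probe sets was 0.01. Single members ran from -4.30 to 0.08, with the middle of the distribution between -1.07 and -0.60.

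Without the dim arrays B73xMo17 replicates 1 and 2, which leaves 1 array of that hybrid with its spread taken from the other groups, 29 of the 58 members were called, beside 8.29% of all tested probe sets, and the members' median was -0.80. In a fit on the 6 hybrid arrays alone, 51 members were higher in Mo17xB73, beside 13.7% of tested probe sets. The B73 arrays, whose signal for these members lay near background, had a median log2 SD of 0.28 over 3 arrays, against 0.12 in Mo17, 0.15 in Mo17xB73 and 0.16 in B73xMo17, and the fit on all 12 arrays shares 1 spread. On the deposited scale, where the median of all tested probe sets lay at -0.23, the members' median was -1.03, and their median percentages were 63.0% and 30.2%.

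Read against the 2-fold dosage difference, 28 members had a 95% limma interval that held -1, 10 had one wholly below it and 20 had one wholly above it. Such intervals are not adjusted for the number of members. Over all tested probe sets, 0.953% had an interval wholly below -1. All 10 members past 2-fold stayed past it on the deposited scale, with crossing date as a block and in the fit on hybrid arrays alone. Of the 20 short of 2-fold, 7 stayed short on the deposited scale, where the counts were 12 past, 39 holding and 7 short.

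**Figure D2:**
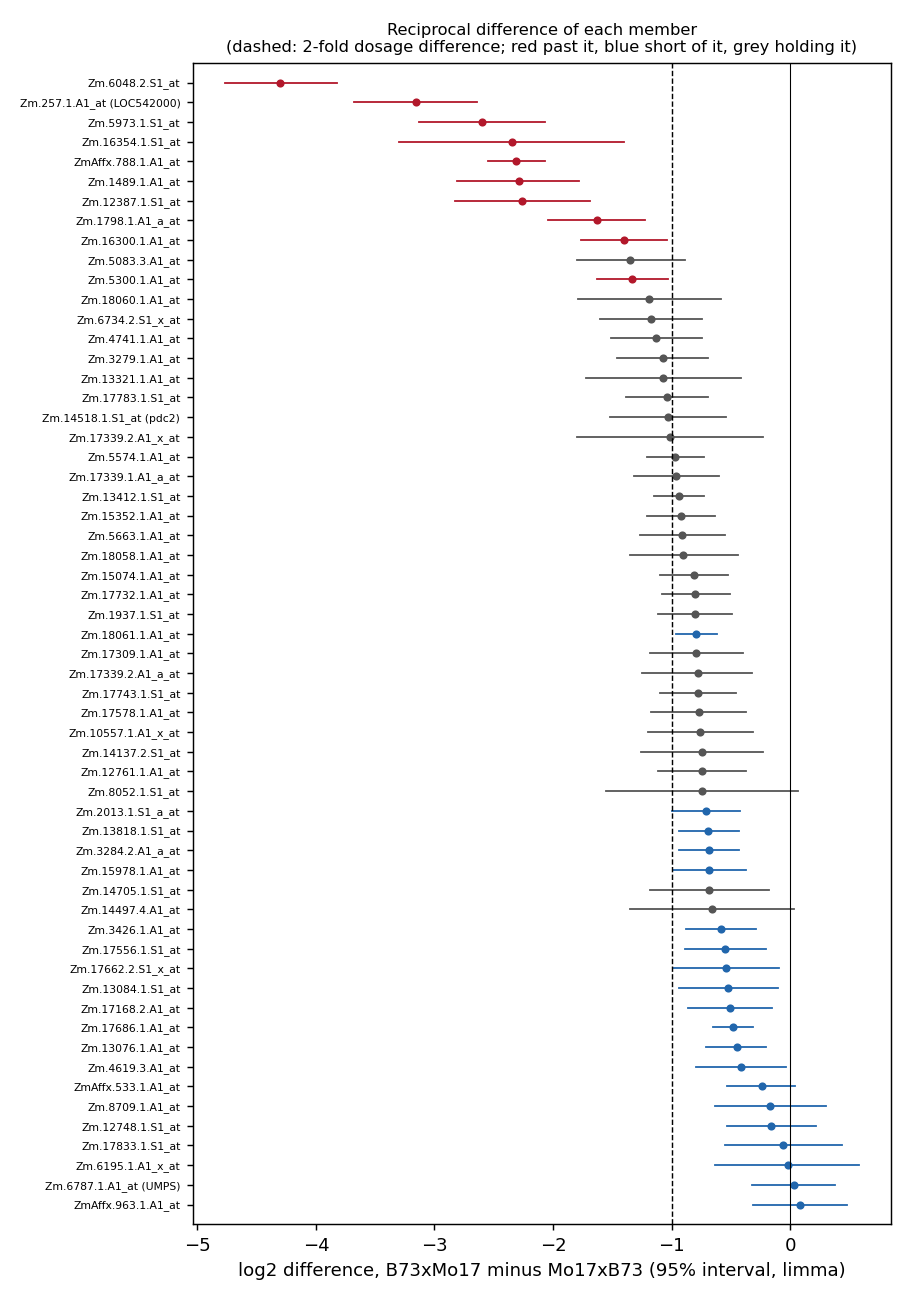
Log2 difference B73xMo17 minus Mo17xB73 of each of the 58 members, ordered by size, with 95% intervals from limma; the dashed line at -1 is the 2-fold dosage difference and the solid line is 0. Most intervals cross or lie near the dashed line, 10 lie wholly to its left and 20 wholly to its right.

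Only 3 members had a gene in the annotation table, or 5.17% beside 8.24% of all probe sets, and the others are given by probe set ID. The first of these genes is pdc2 (LOC542651), a pyruvate decarboxylase gene; the enzyme makes acetaldehyde from pyruvate on the way to ethanol. Its member probe set Zm.14518.1.S1_at read 1863, 1545 and 2067 on the Mo17 arrays, 1227, 1255 and 1430 in Mo17xB73, 531, 586 and 831 in B73xMo17, and 26.5, 8.59 and 27.9 in B73. The 4 genotypes did not overlap and stood in the order of Mo17 copies. Relative to Mo17 the gene read 72.1% ± 8.07 in Mo17xB73 and 35.5% ± 6.20 in B73xMo17 (SD, n = 3), and it was 2.04-fold higher in Mo17xB73 (log2 -1.03 ± 0.23, adjusted p 0.00516). That call was lost without the dim B73xMo17 arrays (-0.65, adjusted p 0.174).

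The pdc2 gene had other probe sets that read the inbreds differently. Zm.10317.1.S1_at read 58.9 in Mo17, 1016 in Mo17xB73, 1839 in B73xMo17 and 2169 in B73 (geometric means), the opposite order. As a percentage of its B73 level it stood at 46.9% ± 0.887 in Mo17xB73 and 84.8% ± 2.88 in B73xMo17, and it was higher in B73xMo17 (0.86 ± 0.13, adjusted p 0.000523). A further probe set, Zm.14518.1.S1_s_at, read 1265, 1232, 1213 and 1061 in the order Mo17, Mo17xB73, B73xMo17 and B73, and did not pass between the hybrids (-0.02 ± 0.14, adjusted p 0.924). Zm.14518.1.A1_at was too dim to test, at 15.9 to 22.1. The same gene thus has a probe set in this set, another in its counterpart with the inbreds exchanged, and one more that reads all genotypes within 2-fold of each other.

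LOC542000, to which the annotation gives no function, was measured by Zm.257.1.A1_at and read at the level of the first-named parent in both hybrids. It read 447, 645 and 583 in Mo17, 406, 738 and 585 in Mo17xB73, 62.3, 64.2 and 61.6 in B73xMo17, and 97.8, 54.3 and 79.8 in B73. Values of Mo17xB73 overlapped with those of Mo17, and those of B73xMo17 lay among those of B73. Its percentages of Mo17 were 102% ± 11.9 in Mo17xB73 and 11.5% ± 2.15 in B73xMo17. The difference between the hybrids was 8.93-fold (log2 -3.16 ± 0.24, 95% interval -3.68 to -2.64, adjusted p 7.46e-06).

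UMPS encodes uridine monophosphate synthase, which carries out the last steps of pyrimidine nucleotide synthesis, and its member probe set showed no reciprocal difference beyond the spread. Zm.6787.1.A1_at read 423, 439 and 525 in Mo17, 318, 338 and 395 in Mo17xB73, 328, 344 and 404 in B73xMo17, and 50.5, 55.3 and 37.1 in B73. On each date both hybrids were nearly level, at 75.8% ± 0.979 and 77.6% ± 0.798 of Mo17. The log2 difference was 0.03 ± 0.16 (adjusted p 0.893), and its interval from -0.32 to 0.38 excludes the 2-fold difference. A second UMPS probe set, Zm.6787.1.A1_a_at, read 1495 in Mo17, 1270 in Mo17xB73, 1241 in B73xMo17 and 1125 in B73, so the near absence in B73 was read by 1 of the 2 probe sets.

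**Figure D3:**
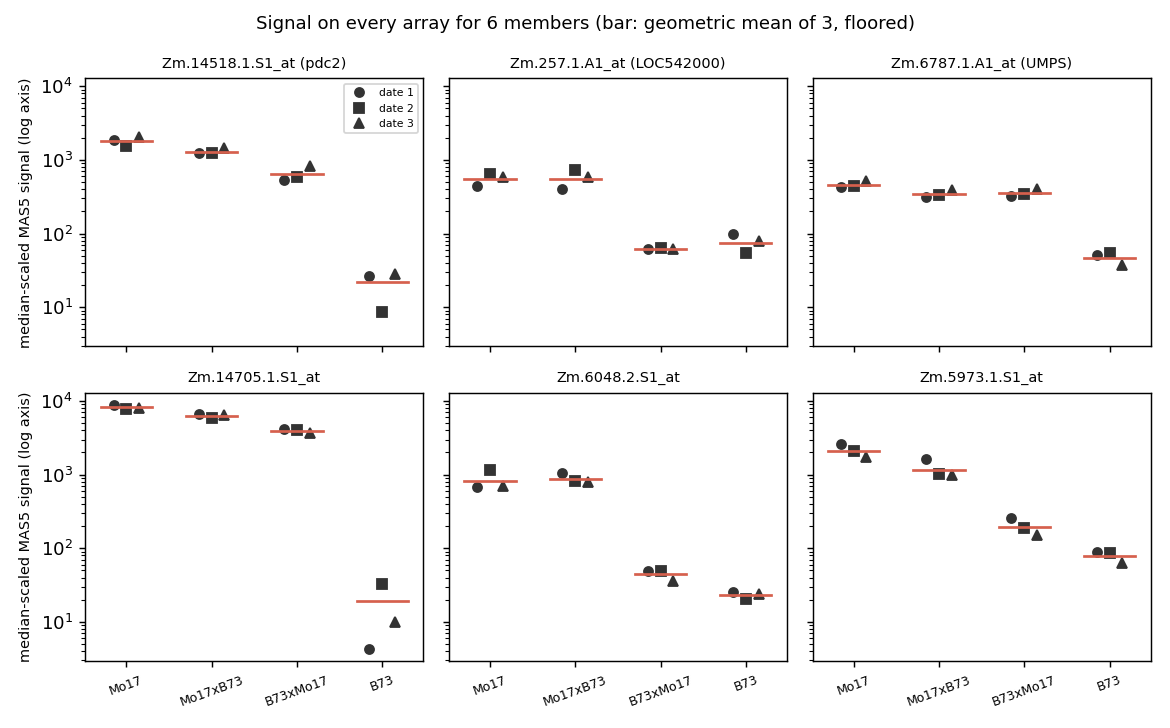
Median-scaled signal on a log axis for 6 members on all 12 arrays, with marker shape for crossing date and a bar for the geometric mean of 3 arrays after flooring. The probe sets of pdc2 and Zm.14705.1.S1_at step down with the number of Mo17 copies, LOC542000 and Zm.6048.2.S1_at stay at the Mo17 level in Mo17xB73 and drop in B73xMo17, and UMPS is level between the hybrids.

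Besides LOC542000, 9 members had a reciprocal difference wholly past 2-fold, and 5 of them, ZmAffx.788.1.A1_at, Zm.12387.1.S1_at, Zm.1489.1.A1_at, Zm.1798.1.A1_a_at and Zm.5300.1.A1_at, were chosen for naming after their values were seen. The largest was that of Zm.6048.2.S1_at, which read 685, 1175 and 700 in Mo17, 1054, 811 and 783 in Mo17xB73, 49.3, 49.8 and 35.8 in B73xMo17, and 25.6, 20.3 and 23.9 in B73. Mo17xB73 overlapped with Mo17, and B73xMo17 lay above B73 on every array but far below both. Its signal stood at 112% ± 42.4 and 5.52% ± 1.52 of Mo17, a 19.7-fold difference between the hybrids (-4.30 ± 0.22, adjusted p 3.55e-07). Another probe set with nearly full Mo17 level in Mo17xB73 was Zm.1489.1.A1_at, at 94.6% ± 7.98 against 19.8% ± 6.02 in B73xMo17 (-2.29 ± 0.24). It read 91.4, 51.5 and 86.0 in B73. With B73 signal subtracted, it stood at 93.4% ± 9.75 in Mo17xB73 and 3.44% ± 7.06 in B73xMo17.

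A different pattern was a level in Mo17xB73 below that of Mo17 on each date, with a much lower one in B73xMo17. ZmAffx.788.1.A1_at read 762, 787 and 689 in Mo17, 544, 511 and 528 in Mo17xB73, and 104, 104 and 111 in B73xMo17, with at most 12.5 in B73. These tight replicates put it at 71.0% ± 5.88 and 14.3% ± 1.55 of Mo17 (-2.31 ± 0.11, adjusted p 3.55e-07). Zm.12387.1.S1_at stood at 72.3% ± 9.03 and 15.2% ± 2.77 (-2.26 ± 0.26). For Zm.5973.1.S1_at the values were 55.6% ± 7.37 and 9.14% ± 0.629 (-2.60 ± 0.24), and for Zm.1798.1.A1_a_at 57.3% ± 3.32 and 19.1% ± 5.46 (-1.63 ± 0.19). All of these were below 33.3% in B73xMo17 by more than their SD over dates. In Mo17xB73, Zm.5973.1.S1_at and Zm.1798.1.A1_a_at were also below 66.7% by more than their SD.

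Zm.16354.1.S1_at varied by crossing date as well. It read 844, 1616 and 1102 in Mo17, 326, 1118 and 352 in Mo17xB73, 83.7, 168 and 68.9 in B73xMo17, and 84.4, 70.6 and 63.3 in B73. The second date was the highest in the 3 genotypes that carry Mo17 alleles. Its percentages were 46.6% ± 19.9 and 8.86% ± 2.27, and the log2 difference was -2.35 ± 0.44 (adjusted p 0.00195). In this member, in LOC542000 and in Zm.1489.1.A1_at, but in no other, the B73xMo17 arrays overlapped with those of B73. The rule held the B73 arrays at or below 100, so separation from B73 is in part a product of the choice of members.

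The remaining members past 2-fold were nearer to it. Zm.16300.1.A1_at, among the 5 brightest unnamed members, read 3494, 4146 and 3514 in Mo17, 2071, 3038 and 2409 in Mo17xB73, and 1005, 958 and 859 in B73xMo17, with 13.7 to 22.4 in B73. That is 67.0% ± 7.12 and 25.4% ± 2.96 of Mo17, and a log2 difference of -1.40 ± 0.17 whose interval ends at -1.04. Zm.5300.1.A1_at stood above the dosage level in both hybrids, at 117% ± 15.2 and 46.4% ± 5.00. With its B73 signal subtracted, the highest of the set at 85.9, it stood at 119% ± 16.9 and 40.6% ± 5.7. Its Mo17xB73 values of 1054, 945 and 1110 were not below its Mo17 values of 825, 949 and 898 except on the second date, and the log2 difference was -1.33 ± 0.14.

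Members with the smallest reciprocal difference read above 33.3% of Mo17 in B73xMo17. The highest percentages there were 86.1% ± 4.36 for Zm.6195.1.A1_x_at, 77.6% for UMPS, 67.5% ± 5.66 for Zm.17833.1.S1_at and 63.5% ± 7.91 for Zm.12748.1.S1_at. Zm.6195.1.A1_x_at read 1009, 1105 and 1872 in Mo17, 1238, 763 and 1475 in Mo17xB73, and 896, 977 and 1518 in B73xMo17, so the arrays of these genotypes overlapped and the third date was the highest in each of them. In Zm.17833.1.S1_at and Zm.12748.1.S1_at the excess was in B73xMo17, since Mo17xB73 stood at 70.1% ± 1.48 and 70.6% ± 1.77. Their log2 differences were -0.06 ± 0.23 and -0.16 ± 0.17 (adjusted p 0.871 and 0.507), with intervals of -0.55 to 0.44 and -0.53 to 0.22.

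Members with low levels in Mo17xB73 had both small and large differences: Zm.5083.3.A1_at stood at 49.6% with -1.35 and Zm.4741.1.A1_at at 53.1% with -1.13. ZmAffx.963.1.A1_at, chosen for mention after its values were seen, stood at 53.9% ± 0.437 in Mo17xB73 and 57.8% ± 11.4 in B73xMo17, and was 1 of 2 members with an estimate above 0 (0.08 ± 0.18, adjusted p 0.757); the other was UMPS. ZmAffx.533.1.A1_at read 52.1% ± 3.00 and 44.0% ± 0.757 (-0.24 ± 0.13, adjusted p 0.176). Together with Zm.8709.1.A1_at, UMPS and the members of the last paragraph these make up the 7 members called neither in the fit on all arrays nor in that on the hybrid arrays. With crossing date as a block, ZmAffx.533.1.A1_at was called (-0.24, interval -0.44 to -0.04, adjusted p 0.0487), and its hybrid arrays did not overlap.

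Of the 5 brightest members without a gene name, Zm.16300.1.A1_at was past 2-fold, as given above, and the other 4 had estimates between -0.68 and -0.48. Zm.14705.1.S1_at, the most intense of the set, read 8739, 7690 and 8096 in Mo17, 6740, 5878 and 6463 in Mo17xB73, 4104, 4095 and 3714 in B73xMo17, and 4.34, 32.9 and 10 in B73. Its genotypes did not overlap, and the hybrids stood at 77.8% ± 1.80 and 48.7% ± 3.99 of Mo17. The adjusted p was 0.0414 in the fit on all arrays (-0.68 ± 0.23) and 0.000938 on the hybrid arrays alone. It went above 0.05 under several other settings, up to 0.270 with no floor and no lower than 0.0723 when any 1 hybrid array was left out.

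Zm.14497.4.A1_at read 5849, 5642 and 6028 in Mo17, 4949, 5358 and 5581 in Mo17xB73 and 3103, 3518 and 3452 in B73xMo17, or 90.7% ± 5.43 and 57.6% ± 4.66 of Mo17, both above the dosage levels. Its hybrid arrays did not overlap, yet it was not called on all arrays (adjusted p 0.130), where its B73 arrays spread from 1.51 to 45.8, and was called on the hybrid arrays alone (0.00113). Zm.17686.1.A1_at stood at 76.4% ± 6.68 and 54.7% ± 2.78 (-0.48 ± 0.08, adjusted p 0.000993; -0.48 and 0.478 with no floor), and Zm.15978.1.A1_at at 70.0% ± 12.1 and 43.4% ± 3.15 (-0.68 ± 0.14, adjusted p 0.00369; -0.72 and 0.0514 without the dim arrays).

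Other called members with the smallest differences were Zm.17556.1.S1_at (-0.55 ± 0.16), Zm.17168.2.A1_at (-0.51 ± 0.16) and Zm.13076.1.A1_at (-0.45 ± 0.12), with adjusted p of 0.0206, 0.0320 and 0.0119. Their percentages were 74.9% ± 16.7 and 50.9% ± 8.21, 68.3% ± 9.66 and 48.1% ± 6.31, and 62.1% ± 7.85 and 45.2% ± 1.42. Without the dim arrays the first and the last were at -0.65 and -0.45, with adjusted p of 0.0906 and 0.109. Zm.17556.1.S1_at also lost its call without B73xMo17 replicate 3 (-0.50, 0.0621) or Mo17xB73 replicate 3 (-0.37, 0.0828). Zm.17168.2.A1_at lost it with no filter (-0.51, 0.0645) and without replicate 1 or 3 of either hybrid (-0.54 to -0.35, 0.0580 to 0.119).

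Medians were also taken by brightness in Mo17, with no test. The 20 brightest, with Mo17 levels from 879 to 8164, had a median log2 difference of -0.78, the next 19 (531.6 to 853) -0.80, and the 19 dimmest (389.5 to 530) -0.79. Median percentages in Mo17xB73 were 70.2%, 68.3% and 66.5%, and those in B73xMo17 38.3%, 37.2% and 38.5%. In means, 53 members followed the order Mo17, Mo17xB73, B73xMo17, B73. The inbreds at its ends were set by the choice of members, so only the place of the hybrids was free. No share of all probe sets is given for this order. The exceptions were LOC542000, UMPS, Zm.5300.1.A1_at, Zm.6048.2.S1_at and ZmAffx.963.1.A1_at. On the deposited scale all 58 members were above 100, the limit used for absence, on every Mo17xB73 array, and 49 were on every B73xMo17 array; 5 were on 1 or 2 of these and 4 on none.

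The signal that chose the members is given for completeness. Geometric means ran from 389.5 to 8164 in Mo17 (median 655) and from the floor of 14.8 to 85.9 in B73 (median 28.7), and 7 members were at the floor on all B73 arrays. Of tested probe sets 26.1% were called higher in Mo17 than in B73, and nothing is read from that share here. Just inside the limits were Zm.17309.1.A1_at, with a lowest deposited Mo17 value of 402.7, and LOC542000, with a highest B73 value of 97.5. Just outside were Zm.18403.1.A1_at, with a Mo17 array at 398.4, and Zm.4427.1.A1_at, with a B73 array at 102.4. The probe set outside on Mo17 read 246.8, 334.7 and 285.4 in Mo17xB73 and 85.2, 110.2 and 100.6 in B73xMo17. With the limits applied to scaled signal there were 50 members, 48 of them shared.

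Probe set types were counted by the suffix of the ID. The plain suffix _at was carried by 48 members (82.8%, beside 87.4% of all probe sets), _a_at by 5 (8.62% beside 7.14%) and _x_at, which marks probes that can bind other sequences too, by 5 (8.62% beside 3.58%); no test was made. Members bore 56 different cluster numbers, the first number of the ID. The 3 that share one, Zm.17339.1.A1_a_at, Zm.17339.2.A1_a_at and Zm.17339.2.A1_x_at, may share a transcript and stood at 64.1% ± 2.33, 58% ± 3.29 and 68.8% ± 8.52 in Mo17xB73, and at 33.4% ± 6.58, 33.8% ± 4.18 and 34.1% ± 3.70 in B73xMo17.

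Of the members, 26 had another probe set with the same cluster number on the array, which is not proof of the same gene. Among 57 such probe sets outside the set, 43 were bright enough to test. More of the 43 bore cluster number 14497, that of the member Zm.14497.4.A1_at, than any other number. Of the 43, 30 read the inbreds within 2-fold of each other, 9 read Mo17 at least 2-fold higher and 4 read B73 at least 2-fold higher. The last group included Zm.17662.1.S1_at, which read 1774, 1813 and 1637 in B73, 1426, 1548 and 1636 in B73xMo17, and 702, 781 and 822 in Mo17xB73, with at most 12.9 in Mo17. Its hybrids stood at 88.6% ± 10.2 and 44.3% ± 5.41 of B73, while the member Zm.17662.2.S1_x_at stood at 74.9% ± 3.96 of Mo17 in Mo17xB73 and 51.4% ± 2.21 in B73xMo17. Between the hybrids Zm.17662.1.S1_at was higher in B73xMo17 (1.00 ± 0.09, adjusted p 2.54e-05), and the member was not called (-0.54 ± 0.21, adjusted p 0.0635). The others were Zm.10557.2.A1_at, Zm.14497.5.S1_at and Zm.14497.1.A1_at, a probe set of the histone H2B gene his2b5, which stood at 75.9% ± 2.23 of B73 in B73xMo17 and 53.4% ± 5.18 in Mo17xB73. None of these passed between the hybrids (adjusted p 0.235, 0.103 and 0.265). The probe sets of this paragraph were chosen after their values were seen.

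**Figure D4:**
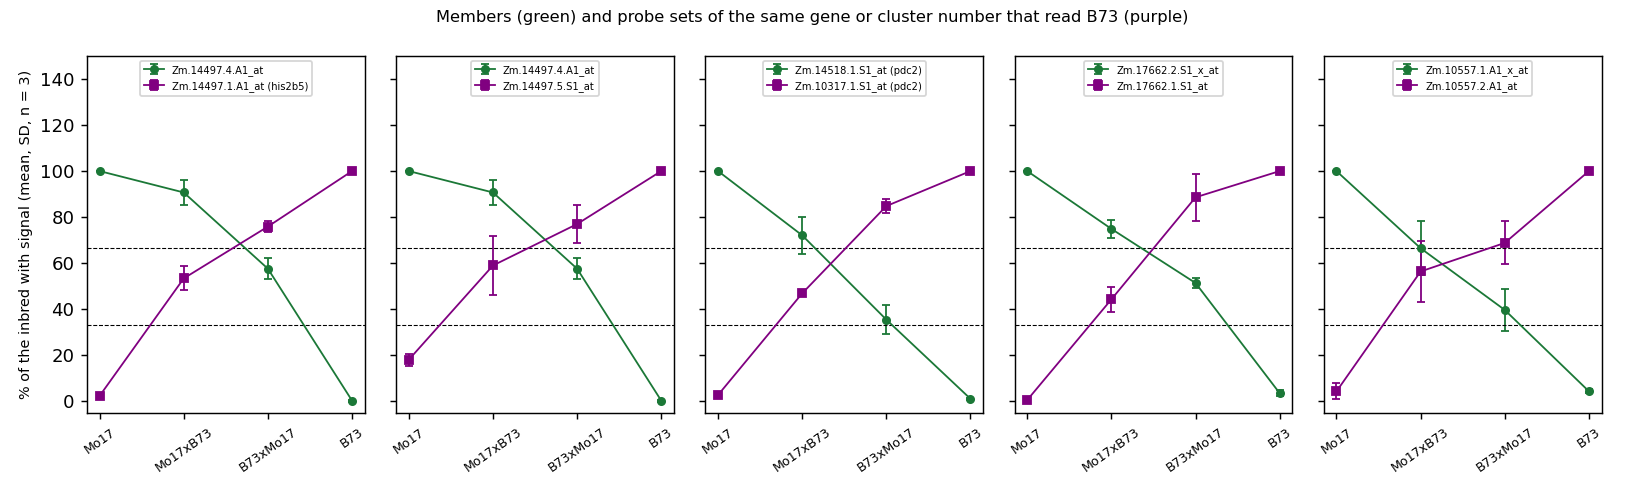
Each panel shows a member as a percentage of its Mo17 level (green) and a probe set of the same gene or cluster number as a percentage of its B73 level (purple) in the 4 genotypes, mean and SD over 3 dates; dashed lines mark 33.3% and 66.7%. Across the inbreds each pair runs in opposite directions, with pdc2 at 72.1% and 35.5% for Zm.14518.1.S1_at and 46.9% and 84.8% for Zm.10317.1.S1_at.

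The counterpart with the inbreds exchanged, at least 400 on all B73 arrays and at most 100 on all Mo17 arrays, held 72 probe sets. Its median member read 69.7% of B73 in B73xMo17 and 35.8% in Mo17xB73, against 67.8% and 38.4% for the set present in Mo17, each with 2 copies and 1 copy of the present allele. The median log2 difference was 0.96. Of the 72, 63 were called higher in B73xMo17, the hybrid with 2 copies, beside 15.3% of all tested probe sets. None was called higher in Mo17xB73, beside 15.9% (2 had an estimate in that direction, 0 at an unadjusted p under 0.05). Intervals were past 2-fold for 15, held it for 44 and were short of it for 13, against 10, 28 and 20 of 58. Which set lay nearer to 2-fold turned with the scaling. On the deposited scale the medians were 0.72 for the counterpart and -1.03 for the members, and the counts were 9, 41 and 22 against 12, 39 and 7. The difference between the sets was not tested.

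**Figure D5:**
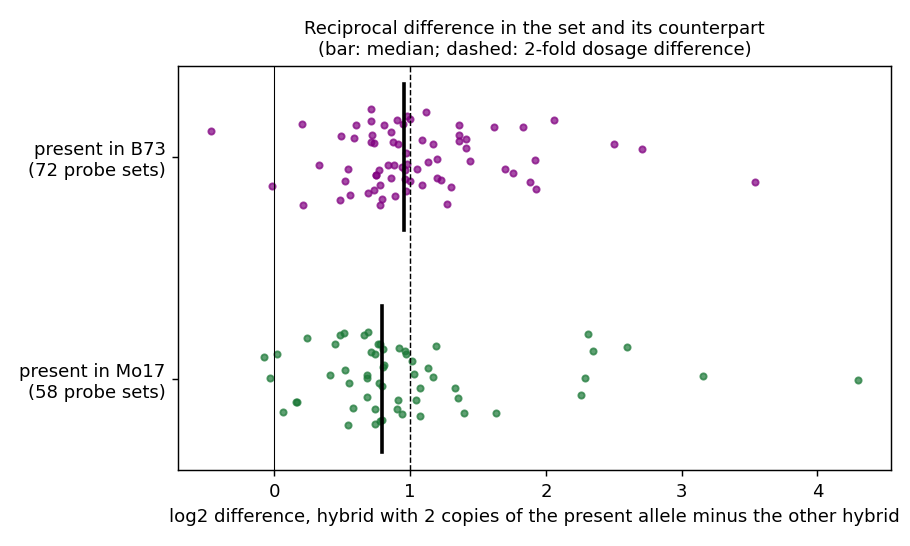
Log2 difference between the hybrid with 2 copies of the present allele and the other hybrid, for the 58 probe sets present in Mo17 (green) and the 72 present in B73 (purple), with a bar at each median and a dashed line at 2-fold. Medians are 0.79 in size for the first set and 0.96 for the second, and both sets have members beyond 2 and members near 0.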

How the data were processed

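RNA of 12 pools, 3 for each of 4 genotypes, was labelled with biotin from 8 ug of total RNA and hybridised to one-colour arrays. The deposited values are MAS5 intensity on a linear scale, 1 value per probe set and array, per the submitters' processing notes; no version or scaling target of MAS5 is given in those notes, and detection calls were not used here. The table held 17734 probe sets, of which 113 controls were left out. The members and lists were chosen with earlier results of these data known.

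Members were found on the deposited values. For the tests, arrays were scaled to equal medians of the probe sets kept by the 40th percentile of deposited signal. Scaled signal was floored at its pooled 20th percentile (14.8), probe sets with a mean above the 40th percentile (71.8) were tested, and log2 values were fitted with limma 3.58.1 in R 4.3.3. The fit had 4 genotype means, 8 residual degrees of freedom, empirical Bayes moderation with an intensity trend and no block. Tests were two-sided, with Benjamini-Hochberg adjustment over all tested probe sets, and the fitting script was tested on simulated data. Errors of log2 differences are SE and those of percentages SD over the 3 crossing dates. The number of arrays limits the precision. Replicates come from separate crossing dates, per the labels.

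Replicate numbers pair the arrays by crossing date, per the labels: deviations from the genotype means correlated at 0.247 to 0.593 over the 18 pairs of arrays with the same number. Named members are all those with 1 gene, the 5 brightest others and the 4 called members at each end of the reciprocal difference. They also include the 4 with the highest and the 4 with the lowest percentage in B73xMo17, and those next to the limits. Other members given by ID in the text were chosen after their values were seen. Of 1452 probe sets with 1 gene, 1377 matched the RefSeq annotation of the B73 assembly, which gave the names; gene positions and sequences were not used here. Markers are the brightest probe set per gene. Alternatives covered scaling, floor, filter, block, arrays and membership.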

Additional observations from a re-analysis of the deposited data

How the results depend on the processing

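Under every alternative run, no member was called higher in B73xMo17, and the direction of the members' median did not change. With crossing date as a replicate block 49 members were called in place of 46, with 10 past and 20 short of 2-fold, and the block changed no call of the 17 members named by the rule. The 3 members it added were Zm.4619.3.A1_at, Zm.13084.1.S1_at and ZmAffx.533.1.A1_at (adjusted p 0.00524, 0.0332 and 0.0487). On the deposited scale 7 intervals were short of 2-fold and the median was -1.03, with median percentages of 30.2% in B73xMo17 and 63.0% in Mo17xB73. The percentages were 38.0% and 67.1% with quantile normalization, 39.4% and 68.5% with 75th percentile scaling (median -0.76), and 33.5% and 66.3% with B73 signal subtracted. Without B73xMo17 replicates 1 and 2 together, 29 members were called and 13 were short of 2-fold. With stricter limits of 800 and 50 there were 14 members, with a median of -0.85 and percentages of 36.0% and 66.9%. Of these 14, 12 were called, 1 was past and 4 were short of 2-fold. Leaving out 1 hybrid array at a time gave 40 to 43 calls, 8 to 10 past and 14 to 16 short of 2-fold, and medians of -0.85 to -0.77; calls without 1 Mo17 or B73 array were not computed. Leaving out 1 hybrid or Mo17 array gave percentages of 36.8% to 38.7% in B73xMo17 and 66.6% to 68.6% in Mo17xB73. With no floor 35 were called and with a floor at the 40th percentile 51. Apart from the fit without the dim arrays, shares of all tested probe sets are not given for these settings. The shifts are therefore not read as particular to the members. For the named members, 262 of 289 refits kept the side of the threshold, 24 lost a call and 3 gained one, all 3 for Zm.14497.4.A1_at. The cause of these shifts was not tested. Signal near background in B73 limits what can be said of levels there.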

Other observations

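A cluster number shared with the member of the largest reciprocal difference showed the hybrids in another order. Zm.6048.1.S1_at read 954.7 in Mo17 and 951.3 in B73 (-0.01, adjusted p 0.958), yet 795.4 in Mo17xB73 and 1245 in B73xMo17. On the arrays the hybrids stood apart, at 853, 757 and 779 against 1231, 1263 and 1241, and the log2 difference was 0.65 ± 0.07 (adjusted p 8.71e-05). Zm.6048.2.S1_a_at, of the same number, read 2478 and 2292 in the hybrids and did not pass between them (-0.11 ± 0.07, adjusted p 0.250). These probe sets carry no gene name here and were chosen after their values were seen.

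Other probe sets that share a cluster number with a member, also chosen after their values were seen, read Mo17 above B73 without meeting the limits for membership. Zm.13412.2.S1_at read 361.8 in Mo17, 225.1 in Mo17xB73, 103.6 in B73xMo17 and the floor of 14.8 in B73, with a log2 difference of -1.12 between the hybrids (adjusted p 0.000229). Zm.15352.1.A1_x_at read 553.8, 407.3, 209.6 and 98.8 in the same order (-0.96, adjusted p 8.12e-05). By contrast Zm.13412.1.S1_a_at read 1509 in Mo17 and 1115 in B73, and 1276 and 1104 in Mo17xB73 and B73xMo17 (-0.21, adjusted p 0.155).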
